A study of Mus musculus with 24 samples.

Results

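Pleiotrophin (Ptn), midkine (Mdk) and 5 of their receptors and binding proteins, Ptprz1, Alk, Sdc1, Sdc3 and Ncl, were followed through mouse lacrimal gland (LG) and through spheres grown from lacrimal gland stem cells (LGSCs). These 7 genes, of 63862 listed in each library, were chosen by name, and the set was picked because Ptn is among the largest rises of the embryonic LG. The values of Ptn in embryonic LG, adult LG and day 7 spheres are therefore given as a description, with no test. All samples came from C57BL/6 mice. The tissue groups were whole LG at E17.5 and E19.5 (E for embryonic day) and from adults, with 3 libraries each. The sphere groups were passage 2 LGSCs, started from LG of mice 6 to 8 weeks old and kept in Matrigel in serum-free medium with EGF, FGF10, Wnt3A and Y-27632, collected at day 5 (2 libraries) and at day 7, day 10 and day 14 (3 libraries each). One further library held passage 10 spheres at day 7. No source used here gives the age of the adult LG donors or says whether the libraries of a group came from separate animals or cultures, so the p-values measure the spread between these libraries, which may be technical.

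Pleiotrophin and midkine are the only members of a small family of secreted, heparin-binding growth factors. Both are abundant in embryonic tissues where epithelium meets mesenchyme and are low in most adult organs. They bind the sulfated sugar chains of proteoglycans, among them the receptor phosphatase PTPRZ1, which pleiotrophin binding inactivates, and the syndecans SDC1 and SDC3, which are cell surface heparan sulfate proteoglycans. ALK is a receptor tyrosine kinase linked to both factors, and nucleolin (NCL) is a nucleolar protein of ribosome production that also binds them at the cell surface.

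The genes lie, on GRCm38 as annotated in GENCODE M21, at chr6:36714929-36810220 on the minus strand (Ptn), chr2:91929805-91932297 minus (Mdk), chr6:22875502-23052916 plus (Ptprz1), chr17:71868972-72604627 minus (Alk), chr12:8771323-8793715 plus (Sdc1), chr4:130792537-130826319 plus (Sdc3) and chr1:86344719-86359400 minus (Ncl). Sdc3 overlaps 2 antisense genes, Gm12970 and Gm26716, and the sources used here do not say whether reads were counted by strand, so their reads cannot be told apart. Ncl overlaps 4 small RNA genes on its own strand. The values are taken to be FPKM, reads scaled to gene length and library size. Different genes are compared here by their listed values only, since a low listed value need not be a low level in the cells, as described below.

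Promoter sequences were set beside the 2 members with the most reads that are higher in embryonic than in adult LG, since they differ in makeup. Both are given 5′ to 3′ upstream of the gene's start, from RefSeq on GRCm38.p6. The capitals mark GC boxes (GGGCGG or its reverse complement CCGCCC) and CCAAT boxes (CCAAT or ATTGG).

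Ptn, chr6:36810221-36810429, minus strand: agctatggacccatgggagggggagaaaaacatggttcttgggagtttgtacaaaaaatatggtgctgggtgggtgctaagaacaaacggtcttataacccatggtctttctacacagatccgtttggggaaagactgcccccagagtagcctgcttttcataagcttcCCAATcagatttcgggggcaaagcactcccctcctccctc

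Ncl, chr1:86359456-86359705, minus strand: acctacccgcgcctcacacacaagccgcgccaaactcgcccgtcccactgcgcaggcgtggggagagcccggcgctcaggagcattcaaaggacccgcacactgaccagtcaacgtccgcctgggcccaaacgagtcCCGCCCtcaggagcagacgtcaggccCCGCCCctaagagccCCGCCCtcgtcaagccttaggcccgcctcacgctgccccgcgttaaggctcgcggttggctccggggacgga

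In the 250 bases before its RefSeq start, Ptn had 5 CpG and 52.0% G or C, near the median of 52.4% over 32851 promoters. Ncl had 27 CpG and 69.6% G or C, and held 3 GC boxes, where Ptn held none. Of all 32851 promoters, 32.7% held a GC box, 33.8% a CCAAT box and 12.4% a TATA box (TATAAA or TTTATA), and the last was in none of the 6 member promoters found. Sdc3 (76.4%), Ptprz1 (71.6%), Sdc1 (66.0%) and Alk (65.2%) were also above the median share of G or C, and the table used has no entry for Mdk. These are matches of letters and say nothing of which factors bind.

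The reads recovered from the FPKM numbered 6434734 to 9258020 in the 20 passage 2 and tissue libraries and 25181804 in the passage 10 library. Adult LG replicates 1 and 2 stood apart, since their 10 leading genes held 60.4% and 59.6% of all reads, against 31.3% in adult replicate 3 and at most 8.1% elsewhere. Their reads were 2.667 and 2.567 times the scale of the deposited values, against 0.832 to 1.129 in every other library. Rescaling to the reads moved the median log2 difference of all genes between E17.5 and adult LG by 0.585, between E19.5 and adult LG by 0.515 and between day 7 spheres and adult LG by 0.678. The split of genes past the threshold then went from 5405 higher and 4634 lower at E17.5 to 8450 and 1913, so differences from adult LG depend on the scale. Values are on the deposited scale unless said otherwise. The tissue and sphere libraries carried epithelial markers such as Cdh1 and Krt18, while Epcam, Krt8 and the proliferation marker Mki67 were listed at 0 in all 20 of them. Of the 5333 shared genes with at least 10 FPKM in the passage 10 library, 2696 (50.6%) had a day 7 mean in passage 2 spheres under 0.1 times that value and 577 were listed at 0 in all 20 libraries. The passage 10 table was made against another gene list, so a low value in the 20 libraries need not be a low level in the cells. Tests were kept within the 20 libraries, and passage 10 values are given as a description.

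Ptn had the highest listed FPKM of the 7 genes in embryonic LG by a wide margin, and its listed values were low elsewhere. Its FPKM was 627, 629.6 and 673 in the E17.5 libraries and 613, 628 and 788 in the E19.5 libraries. In adult LG it was 1.93, 2.57 and 3.17 FPKM, from 16, 28 and 83 reads. The lowest embryonic library thus stood far above the highest adult one, and E17.5 and E19.5 overlapped. Taken as ratios of group means, Ptn was 251-fold higher at E17.5 and 264-fold higher at E19.5 than in adult LG, or 434-fold and 419.9-fold with the libraries scaled to their reads. On the log2(FPKM + 1) scale the difference was 7.51 ± 0.171 (SE, n = 3 each) at E17.5 and 7.58 ± 0.171 at E19.5, ranks 5 and 6 among 18578 genes, which is the value that chose the set.

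Spheres held Ptn at a low level between those of adult and embryonic LG. Day 5 spheres had 22.9 and 13.0 FPKM, day 7 spheres 16.3, 10.6 and 5.82, day 10 spheres 3.95, 13.4 and 10.4, and day 14 spheres 2.91, 8.97 and 8.24. Adjacent days overlapped throughout, and the day 14 group also overlapped adult LG. The day 7 mean was 4.26-fold that of adult LG, or 7.98-fold when scaled to reads, and 59.1-fold below that of E17.5 LG. Across the 11 sphere libraries the slope of Ptn was -0.13 ± 0.0542 (SE) log2 units per day, with an unadjusted p of 0.0344 and an adjusted p of 0.219 in limma. The passage 10 spheres had 9.60 FPKM, within the range of the day 7 passage 2 spheres.

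The sum of the mesenchyme markers moved with Ptn between tissues. Their summed FPKM over the 10 genes of the list, with collagens, Pdgfra, Pdgfrb, Dcn, Lum, Twist2, Prrx1 and Thy1, was 4751 to 5468 at E17.5, 4741 to 5722 at E19.5, 176 to 346 in adult LG and 0.406 to 3.44 in passage 2 spheres, where Pdgfrb was listed at 0 from day 5 to day 14. Col1a1, Col3a1, Dcn and Lum made up nearly all of the embryonic sum. Thy1 did not follow Ptn, with means of 14.7 FPKM at E17.5, 31.2 at E19.5 and 18.1 in adult LG. Pdgfrb was at most 0.0626 FPKM in any LG library. The other genes of the list had higher means in both embryonic groups than in adult LG. The part of the mesenchyme markers in the fall of Ptn from embryonic to adult LG was not tested. In whole tissue, fewer cells of a type and less RNA per cell cannot be told apart. Other marker sums were also higher in embryonic than in adult LG or passage 2 spheres, namely Schwann cell (90.7 to 172 FPKM against 16.1 to 33.8 in adult LG and 10.8 to 22.6 in spheres), endothelium (105 to 174 against 34.8 to 101 and at most 0.255) and skeletal muscle (4.86 to 22.5 against 0.285 to 2.08 and at most 0.646). The leukocyte sum was 77.3 to 124 FPKM in embryonic LG, 106 to 204 in adult LG and at most 2.84 in passage 2 spheres. The plasma cell sum was 39.0 to 48.0 FPKM in adult LG and at most 3.79 in embryonic LG and passage 2 spheres. The acinar sum was at least 75447 FPKM in adult LG and at most 45.2 in the same 17 libraries. In adult LG it was nearly all Scgb2b2. Ltf of the same list overlapped, with 0.961 to 6.65 FPKM in adult LG and 1.27 to 3.21 in day 14 spheres. The passage 10 library had 408 FPKM of the acinar sum and 9.01 of the leukocyte sum. The 5 genes with a pattern over the 7 group means most like that of Ptn, among 10660 genes, were Mest, Rtl3, Fabp7, Fbn2 and Bex4, with root mean square differences of 0.40 to 0.74 log2 units. Fabp7, which is also in the Schwann cell list, was listed at 0 in adult LG and spheres. Mest, an imprinted gene of embryonic mesoderm, came closest, with means of 226 FPKM at E17.5, 147 at E19.5, 0.738 in adult LG and 2.44 in day 7 spheres.

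**Figure D1:**
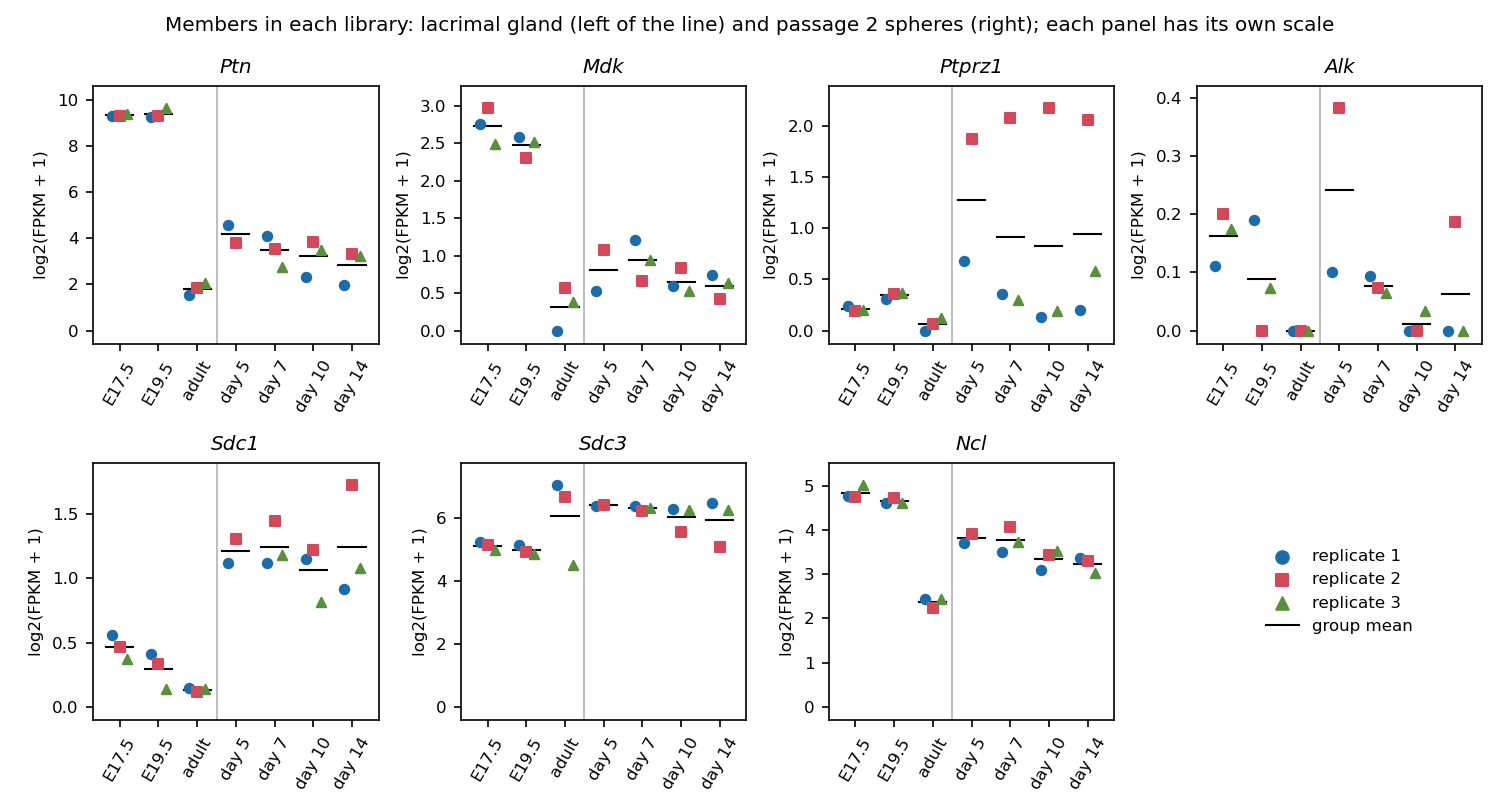
Level of each of the 7 genes as log2(FPKM + 1) in each of 20 libraries, by group; points are libraries, shaped and coloured by replicate number, lines are group means, and each panel has its own vertical scale. Ptn, Mdk and Ncl are highest in embryonic LG, Sdc1 is highest in spheres, and Ptprz1 is high in replicate 2 of the spheres at every day.

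Mdk was also highest in embryonic LG, at listed values far below those of Ptn. It was 5.73, 6.82 and 4.63 FPKM at E17.5 and 5.01, 3.95 and 4.72 at E19.5, from 47 to 87 reads a library. Adult LG had 0, 0.476 and 0.297 FPKM, from 0, 2 and 3 reads. All 6 embryonic libraries were above the 3 adult ones. Of all genes tested, 59.5% had no overlap with adult LG in either direction at E17.5 and 58.8% at E19.5. Taken as ratios of group means, Mdk was 22.2-fold higher at E17.5 than in adult LG, or 39.1-fold with the libraries scaled to their reads. In limma Mdk was higher than in adult LG by 2.42 ± 0.192 log2 units in the E17.5 group, with an adjusted p of 1.89e-05, and by 2.16 ± 0.192 in the E19.5 group, where it was 3.96e-05. These log2 values understate the change of a gene so low in adult LG. The adult mean of 0.258 FPKM was under the 0.5 FPKM needed for the tissue fit. Mdk thus entered it only through the embryonic libraries, where it was high, which limits these tests. The ratio of pooled reads was 20.3 between E17.5 and adult LG, with a 95% exact interval of 8.54 to 63.1 that covers counting error only, and 15.9 (6.67 to 49.7) between E19.5 and adult LG.

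In spheres Mdk stayed low, and each library rested on 4 to 16 reads. The FPKM were 0.444 and 1.11 (day 5), 1.31, 0.58 and 0.928 (day 7), 0.512, 0.785 and 0.437 (day 10) and 0.678, 0.339 and 0.545 (day 14). The groups of days overlapped, and the slope of -0.034 ± 0.0216 log2 units per day did not pass (limma, adjusted p = 0.417). Day 7 spheres were lower than E17.5 LG, with a difference of -1.799 ± 0.194 log2 units (adjusted p = 0.000601). They were above every adult LG library, and 52.4% of all genes tested had no overlap between these groups in either direction. The difference of 0.62 ± 0.239 log2 units did not pass in limma (adjusted p = 0.086), and it passed with the libraries scaled to their reads (0.82, adjusted p = 0.0337). At 5 adult reads in all, the ratio of pooled reads, 3.35, has a 95% exact interval of 1.30 to 10.99. The ratio of the listed values of Ptn to Mdk, both per length, was 92.4 to 167 in the embryonic libraries and 4.29 to 51.5 in spheres. The closest patterns to that of Mdk over the 7 group means were those of Gm36584, Zfp41, 1110017D15Rik, Tram1l1 and Snord11, all with differences under 0.14 log2 units and all low in level. Mdk itself has a small range, which many genes of low level share.

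Ptprz1, the receptor phosphatase, was near the limit of detection in LG. It was 0.18, 0.138 and 0.149 FPKM at E17.5 and 0.241, 0.281 and 0.286 at E19.5, each from 17 to 36 reads over an exon length of 14.2 kb. Adult LG had 0, 0.0443 and 0.092 FPKM from 0, 2 and 10 reads. The 3 groups did not overlap, which was also so in either direction for 35.1% to 59.5% of all genes tested in each pair of groups. The mean was under the 0.5 FPKM needed for the tissue fit. Without that filter the difference from adult LG was 0.28 ± 0.0557 log2 units at E19.5 (limma, adjusted p = 0.00622) and 0.15 ± 0.0557 at E17.5 (adjusted p = 0.087). The ratio of pooled reads was 4.22 between E19.5 and adult LG (95% exact interval 2.31 to 8.44, counting error only) and 1.74 between E19.5 and E17.5 LG (1.24 to 2.46).

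In spheres Ptprz1 split by replicate number and not by day. Replicate 2 had 2.65, 3.23, 3.51 and 3.16 FPKM at days 5, 7, 10 and 14, from 256 to 401 reads. Replicate 1 had 0.603, 0.281, 0.0952 and 0.15 FPKM at the same days, and replicate 3 had 0.227, 0.138 and 0.498 at days 7, 10 and 14. Replicate 2 was thus 4.40, 11.5, 25.4 and 6.35 times the highest other library of its day. The slope over days (-0.023 ± 0.0748 log2 units per day, limma, adjusted p = 0.9) did not pass. With the replicate number as a block it was -0.0032 and did not pass either (limma, adjusted p = 0.942). The day 7 differences from adult LG (0.85 ± 0.485, limma, adjusted p = 0.215) and from E17.5 LG (0.70 ± 0.481, adjusted p = 0.272), which hold this spread, did not pass.

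Same-numbered sphere libraries also deviated together over all genes. The replicate 2 series also had the lowest epithelium marker sum, 625 to 874 FPKM against 1640 to 3221 in the other 7 sphere libraries. Cdh1, Krt18 and Cldn3 made up nearly all of it. Krt14 and Krt5 of the same list went the other way at days 7, 10 and 14. Replicate 2 was then the highest library of its day, with 17.8, 15.7 and 8.18 FPKM of Krt14. The neuron marker sum of replicate 2 was 65.3, 143, 49.4 and 7.05 FPKM at days 5, 7, 10 and 14 against 0.26 to 14.5 in the others. That sum was nearly all Tubb3, a tubulin of neurons that other cells can also make, which reached 142.6 FPKM at day 7, while Elavl4, an RNA-binding protein of neurons, was listed at 0 in every passage 2 sphere library. The part of these differences in Ptprz1 was not tested. Over the 11 sphere libraries the 5 genes with the pattern most like that of Ptprz1, among 9151 genes, were Cbs, Nebl, Gm53, Sgk1 and Dpp4, a likeness computed after the split was seen. Cbs, an enzyme of cysteine synthesis, had 2.79 to 4.15 FPKM in replicate 2 and 0.129 to 0.668 in the others, and Dpp4, a cell surface peptidase, had 1.70 to 4.07 and 0.0171 to 0.324. The passage 10 library had 7.11 FPKM of Ptprz1 from 2410 reads, above all 11 passage 2 spheres.

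**Figure D2:**
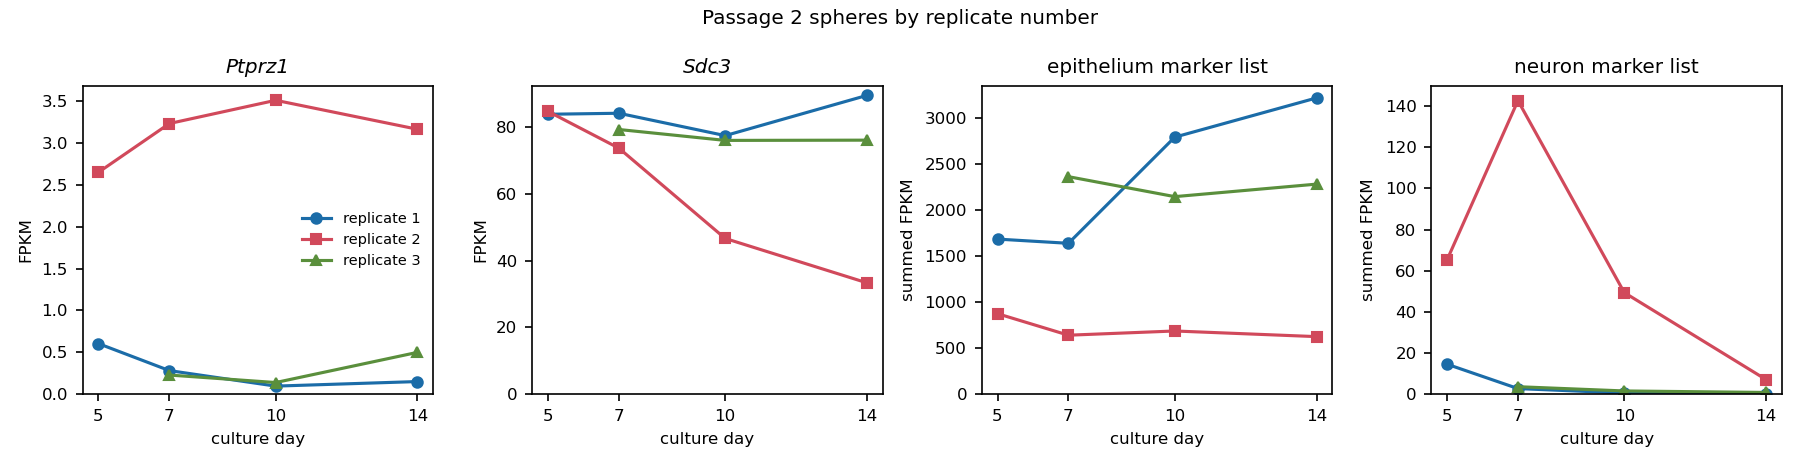
Ptprz1 and Sdc3 (FPKM) and the summed FPKM of the epithelium and neuron marker lists in passage 2 spheres against culture day, with a line for each replicate number; replicate 3 has no day 5 value. Replicate 2 is the highest series for Ptprz1, at 2.65 to 3.51 FPKM, and the lowest for the epithelium marker sum. Its Sdc3 value is 33.3 FPKM at day 14 against 76.1 and 89.5 in the others.

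Alk was hardly detected anywhere. It was listed at 0 in all 3 adult libraries and had 3, 7 and 5 reads at E17.5 and 6, 0 and 2 reads at E19.5. In spheres it had 0 to 10 reads, the most in replicate 2 of day 5 (0.303 FPKM), and 0 in 4 of the 6 libraries of day 10 and day 14. E17.5 did not overlap adult LG, while E19.5 did, and no fold was computed against a group at 0. The reads of Alk take its smallest value as 1 read, since its annotated length did not give whole reads. Alk was under the 0.5 FPKM needed for the fits. Without that filter the E17.5 difference from adult LG was 0.16 ± 0.0513 log2 units (limma, adjusted p = 0.046), on 15 reads in all. The 2 ALK ligand genes of the list, Alkal1 and Alkal2, were also too low for every fit.

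Sdc1, the main syndecan of epithelia, was low in LG and higher in spheres. It was 0.472, 0.381 and 0.295 FPKM at E17.5, 0.33, 0.263 and 0.1 at E19.5, and 0.109, 0.0828 and 0.103 in adult LG, the last from 1, 1 and 3 reads. E17.5 lay above adult LG while E19.5 overlapped it, and the mean was under the 0.5 FPKM needed for the tissue fit. Without that filter the difference from adult LG was 0.33 ± 0.0931 log2 units at E17.5 (limma, adjusted p = 0.0285), and the E19.5 difference, 0.16 ± 0.0931, did not pass (adjusted p = 0.256). The ratio of pooled reads between E17.5 and adult LG was 3.85 (95% exact interval 1.51 to 12.5, counting error only).

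The 11 sphere libraries held 0.759 to 2.30 FPKM of Sdc1, all above the 9 LG libraries. At day 7 it was 1.16, 1.71 and 1.26 FPKM, which was higher than in adult LG by 1.11 ± 0.178 log2 units (limma, adjusted p = 0.00475) and higher than in E17.5 LG by 0.78 ± 0.134 (adjusted p = 0.00426). The means of adult LG (0.0983 FPKM) and E17.5 LG (0.383) were under the 0.5 FPKM needed for a fit. Sdc1 thus entered both fits only through the spheres, where it was high, which limits these tests. The ratio of group means to adult LG was 14.0, or 27.4 when scaled to reads, and the ratio of pooled reads was 13.7, with a 95% exact interval of 5.73 to 42.9. No change over days was seen, with a slope of -0.0014 ± 0.024 (adjusted p = 0.984). In the passage 10 library, however, Sdc1 was at 358 FPKM from 32444 reads, 260-fold the day 7 passage 2 mean. Passage, library and gene list cannot be told apart in that comparison, and whether the low values in the 20 libraries are the level in the cells was not tested.

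Sdc3, the syndecan best known from neural and muscle cells, had the highest listed FPKM of the 7 genes in passage 2 spheres and, by its mean, in adult LG. It was 36.7, 34.5 and 30.7 FPKM at E17.5 and 34.6, 29.8 and 28.5 at E19.5. Adult LG had 134, 101 and 21.8 FPKM, so that 2 adult libraries lay far above the embryonic ones and the third lay below them. The difference from adult LG, -0.96 ± 0.563 log2 units at E17.5 and -1.09 ± 0.563 at E19.5, did not pass in limma (adjusted p = 0.18 and 0.132).

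The sign of that difference turned on the adult libraries and, at E17.5, on their scale. Scaled to recovered reads, adult LG had 50.1, 39.4 and 19.8 FPKM of Sdc3 and the E17.5 difference was 0.04 ± 0.306 (adjusted p = 0.917), while that of E19.5 was -0.20 ± 0.306 (adjusted p = 0.603). Without adult replicate 3 it was -1.75 ± 0.147 for E17.5, with an adjusted p of 2.9e-05 in limma, and for E19.5 -1.88 ± 0.147. With adult replicate 3 alone, which is then assumed to vary like the embryonic groups, it was 0.61 ± 0.145 for E17.5 with an adjusted p of 0.016, and for E19.5 0.48 ± 0.145 with one of 0.0361. No direction between embryonic and adult LG is given for Sdc3 on that account.

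Day 7 spheres held more Sdc3 than E17.5 LG on either scale. The sphere FPKM were 83.8 and 84.7 (day 5), 84.1, 73.7 and 79.3 (day 7), 77.4, 46.6 and 76.0 (day 10) and 89.5, 33.3 and 76.1 (day 14). Day 7 was higher than E17.5 LG by 1.20 ± 0.102 log2 units (limma, adjusted p = 0.000227), or 2.33-fold by group means, and by 1.30 ± 0.13 when scaled to reads (adjusted p = 0.000426). Replicate 2 was the lowest library of its day at days 7, 10 and 14, and at day 14 it was at 0.372 times the highest, within the range of embryonic LG. The slope over days, -0.053 ± 0.0343, did not pass (adjusted p = 0.425). Against adult LG the day 7 difference was 0.23 ± 0.647 (adjusted p = 0.802), 1.35 ± 0.352 when scaled to reads (adjusted p = 0.0206) and -0.55 ± 0.157 without adult replicate 3 (adjusted p = 0.0375), so it too has no settled sign. The passage 10 library had 10.7 FPKM, 7.42-fold below the day 7 passage 2 mean, a gap in the opposite direction to that of Sdc1. Of the 5333 shared genes with at least 10 FPKM at passage 10, 88 (1.65%) were more than 5-fold higher in the day 7 mean.

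**Figure D3:**
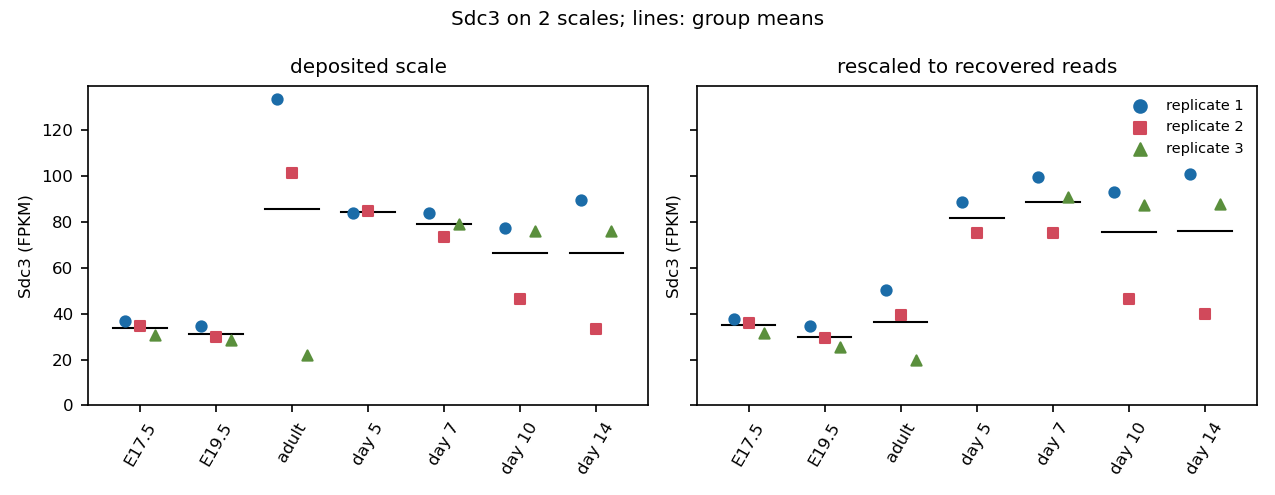
Sdc3 (FPKM) in each of 20 libraries by group, on the deposited scale (left) and rescaled to recovered reads (right), both axes starting at 0; points are libraries by replicate number and lines are group means. Adult LG replicates 1 and 2 move from 134 and 101 to 50.1 and 39.4 FPKM, while the sphere libraries of replicates 1 and 3 stay above all LG libraries in the right panel.

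Ncl, the nucleolar protein of ribosome production, was highest in embryonic LG, lower in spheres and lowest in adult LG. It was 26.1, 25.9 and 31.4 FPKM at E17.5, 23.3, 25.3 and 23.4 at E19.5, and 4.39, 3.75 and 4.40 in adult LG. The E17.5 group was above adult LG by 2.47 ± 0.133 log2 units with an adjusted p of 2.31e-06 in limma, and the E19.5 group by 2.27 ± 0.133 with one of 4.39e-06. Scaled to reads the differences were 3.22 and 2.90. E19.5 lay just below E17.5 without overlap, and 35.1% of all genes tested had no overlap in either direction. The difference of -0.20 ± 0.133 did not pass (adjusted p = 0.547).

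In spheres the FPKM of Ncl were 12.1 and 14.0 (day 5), 10.2, 15.8 and 12.2 (day 7), 7.50, 9.79 and 10.6 (day 10) and 9.27, 8.85 and 7.18 (day 14). Neighbouring days overlapped. The slope of -0.071 ± 0.0208 log2 units per day did not pass, with an unadjusted p of 0.00528 and an adjusted p of 0.0995 in limma, or 0.0655 with the replicate number as a block. At day 7 Ncl was higher than in adult LG by 1.39 ± 0.222 log2 units (adjusted p = 0.00465) and lower than in E17.5 LG, with a difference of -1.08 ± 0.173 (adjusted p = 0.00304). The proliferation marker sum, over 9 genes of which Mki67 was listed at 0, ran in the same order, with 599 to 881 FPKM in embryonic LG, 416 to 430 (day 5), 265 to 416 (day 7), 175 to 336 (day 10) and 148 to 180 (day 14) in spheres, and 75.3 to 114 in adult LG. Pcna, Mcm3, Mcm5 and Ccnb1 made up nearly all of that sum. Mcm2 of the same list did not follow in spheres, with means of 0.371 FPKM at E17.5, 0.114 in adult LG, 0.0741 at day 5 and 0.115 at day 14. The part of the proliferation markers in the values of Ncl was not tested. The passage 10 library had 85.8 FPKM, 6.73-fold the day 7 passage 2 mean.

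The tests can be counted as follows. Between E17.5 and adult LG, 2 of the 3 genes in the fit and open to a test were higher (Mdk and Ncl) and Sdc3 did not pass. Mdk was in that fit only through the embryonic libraries, where it was high. Of all 18578 genes 54% passed, 29.1% higher and 24.9% lower. In the E19.5 group the same 2 genes were higher than in adult LG, where 54.2% of all genes passed, 30.3% higher and 23.9% lower. Between E19.5 and E17.5 LG none of the 3 passed in limma, nor with limma-voom on recovered reads, and none had an unadjusted p under 0.05. Of all 18578 genes 1.74% passed, and 2841 had an unadjusted p under 0.05.

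Over the culture days 0 of 6 genes passed in limma or in limma-voom, where 2.14% of 15584 genes did, 0.648% rising and 1.5% falling (334 genes, or 783 with the replicate number as a block), and 2 of the 6 (Ptn and Ncl) had an unadjusted p under 0.05, as did 2965 of all genes. Between day 7 spheres and adult LG, 2 of 5 genes were higher (Sdc1 and Ncl), where 35.2% of all genes passed, 14.2% higher and 21.1% lower, and 4 of 5 when scaled to reads, with Mdk and Sdc3. Between day 7 spheres and E17.5 LG, Sdc1 and Sdc3 were higher and Mdk and Ncl lower, where 47.6% of all genes passed, 18.1% higher and 29.6% lower. Sdc1 entered both day 7 fits, and Mdk the one with adult LG, only through the spheres, where they were the higher. With so few genes these shares describe the set and test nothing about it.

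**Figure D4:**
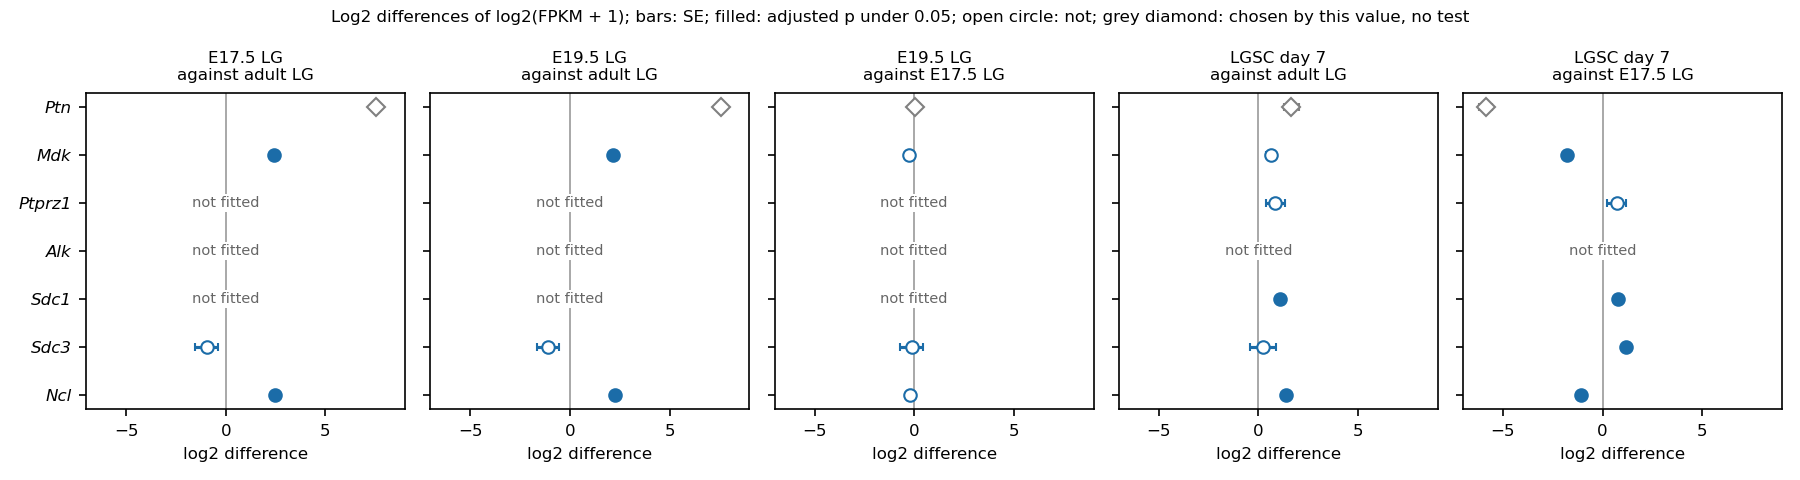
Differences in log2(FPKM + 1) between groups for the 7 genes in 5 comparisons, with bars for the SE, smaller than the symbol where not visible; filled circles have a limma adjusted p under 0.05, open circles do not, and grey diamonds (Ptn) have no test. Ptn was picked for its embryonic rise, and each comparison uses embryonic or adult LG libraries. The filled points are Mdk and Ncl above adult LG in both embryonic groups, Sdc1 and Ncl above adult LG in day 7 spheres, and in day 7 spheres against E17.5 LG Mdk and Ncl below 0 and Sdc1 and Sdc3 above it.

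Some of the enzymes that build or trim the sulfated chains to which both factors bind differed between embryonic and adult LG. Of all genes tested, as given above, 29.1% were higher and 24.9% lower at E17.5. Of 21 heparan sulfate enzymes, 13 were in the fit, and 8 were higher and 0 lower at E17.5, with a median difference of 1.06 log2 units against 0.0534 over all genes (1.92 against 0.638 when scaled to reads). Hs3st3a1 (3.21), Hs6st2 (3.05) and Hs3st1 (2.44), which add sulfate groups to the chains, and Sulf1 (2.12), which removes them outside the cell, had the largest differences in log2 units. At E19.5, 8 were higher and 1, Fam20b, was lower, and Fam20b did not pass when scaled to reads. Of 16 chondroitin sulfate enzymes, 10 were in the fit, 5 of them higher and 2 lower at E17.5, led by Chsy1 (3.56), which extends the chains. Its FPKM was 55.7 at E17.5 against 3.94 in adult LG, both group means. The genes lower at E17.5 were Chst13 (-2.69) and Chpf2 (-1.16). Ext1, among the 8 heparan sulfate enzymes higher at E17.5, entered the fit only through the embryonic libraries, and Chst13 only through adult LG.

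Other proteins known to bind the factors moved in both directions. Of 15 such genes, 8 were in the fit, and 5 were higher and 3 lower at E17.5 than in adult LG, beside the same 29.1% and 24.9% of all genes. Versican (Vcan), a chondroitin sulfate proteoglycan of embryonic mesenchyme, had the largest difference, 6.31 ± 0.235 log2 units (limma, adjusted p = 3.86e-07), with means of 218 and 1.85 FPKM. Cspg5 (2.21), another chondroitin sulfate proteoglycan, and Itga4 (1.45), an integrin chain, were also higher. Ltk (-1.50), the kinase most like ALK, was lower. Sdc4 (-1.15), a further syndecan, and Itga6 (-0.79) were lower on the deposited scale and did not pass when scaled to reads (adjusted p = 0.739 and 0.253). Of 8 partners of PTPRZ1 and ALK inside the cell or at its surface, 5 were in the fit, and 3 (Ctnnb1, Cntn1 and Irs1) were higher and 0 lower, beside the same shares. Cntn1 and Irs1, with adult means of 0.0386 and 0.0589 FPKM, entered the fit only through the embryonic libraries, so this count is partly set by the filter. The same holds for Cspg5 and Ptprs among the binding proteins, while Itga6 entered only through adult LG.

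In spheres these genes took another course. At day 7, of 13 heparan sulfate enzymes in the fit, 2 were higher and 8 lower than in E17.5 LG, where 18.1% of all genes were higher and 29.6% lower, with a median of -0.51 log2 units against -0.0991 over all genes. The 2 that were higher were Sulf2, a sulfatase like Sulf1, with 169 FPKM against 34.1 (2.27 log2 units, limma, adjusted p = 4.61e-05), and Hs6st1 (1.34). Sulf1 was lower (-1.70), as were Hs3st3a1 (-3.79), Hs3st1 (-2.34) and Hs6st2 (-2.02). None of the 9 chondroitin sulfate enzymes in that fit was higher and 6 were lower. Vcan was lower than at E17.5 (-3.89) and higher than in adult LG (2.41), and Sdc4 was higher than in both, by 1.97 and 0.82.

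Against adult LG, 3 of 11 heparan sulfate enzymes were higher in day 7 spheres (Sulf2, Hs6st1 and Glce), where 14.2% of all genes were, and 7 were when scaled to reads. Over the culture days only Hs3st1 of the 29 pathway genes in the fit passed in limma, while 7 had an unadjusted p under 0.05. Of all 15584 genes, 2.14% passed and 2965 had an unadjusted p under 0.05. Hs3st1 had a rise of 0.15 ± 0.0351 log2 units per day (limma, adjusted p = 0.0491) from a mean of 9.89 FPKM at day 5 to 26.7 at day 14. With the replicate number as a block, 1 further heparan sulfate enzyme and 1 chondroitin sulfate enzyme fell.

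**Figure D5:**
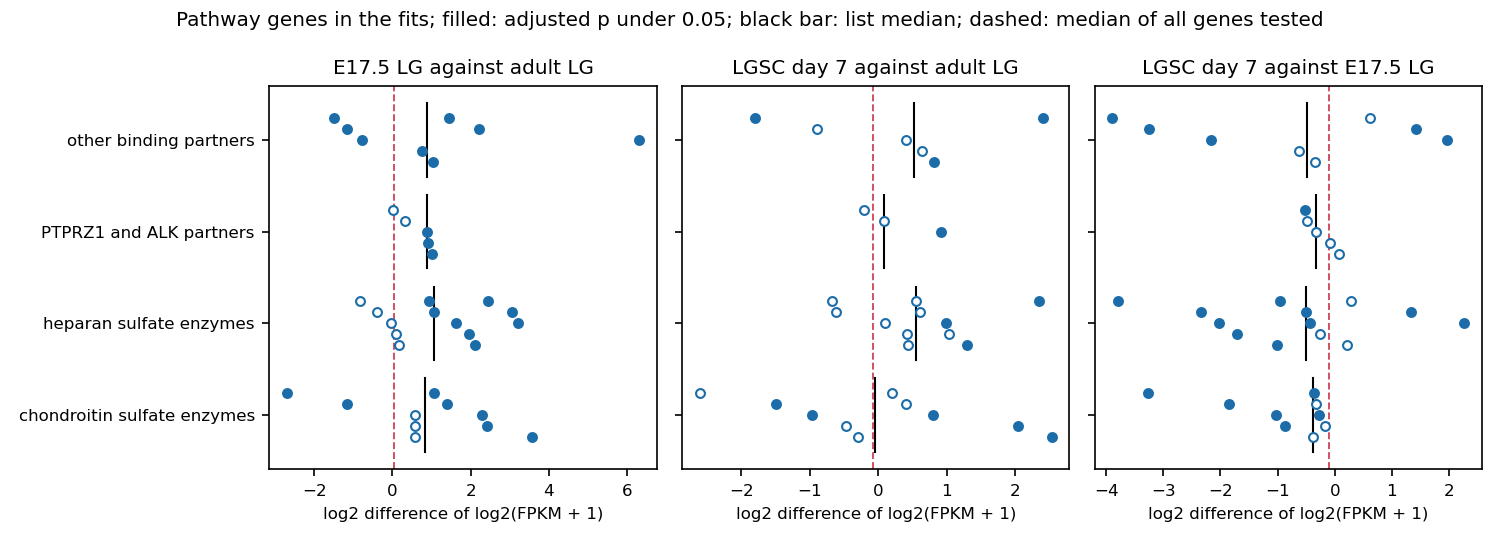
Differences in log2(FPKM + 1) of genes in 4 pathway lists, for E17.5 against adult LG, day 7 spheres against adult LG and day 7 spheres against E17.5 LG; each point is a gene in the fit, filled where the limma adjusted p is under 0.05, black bars are list medians and the dashed line is the median of all genes tested. At E17.5 the 4 list medians lie between 0.827 and 1.06, right of the dashed line at 0.0534.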

How the data were processed

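RNA of LG and LGSC spheres was sequenced as poly-T selected mRNA with the NEBNext Ultra kit. The values deposited by the authors, 1 for each gene of a library, were taken to be FPKM from their size and steps, since the sources used here do not describe how they were made. The submitters' processing notes name CASAVA 1.8, HISAT2 2.0.5, featureCounts 1.5.0-p3 and the build NCBIM37, while positions here are from GENCODE M21 (GRCm38), which held 52489 of the 52636 Ensembl identifiers and none of the 11226 assembled loci. Of 24 samples, 21 were used, and a day 5 replicate and passages 6 and 20 were not analysed here. The passage 10 library (52747 genes, 52671 shared) entered no test.

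Groups and replicate numbers came from the sample titles. log2(FPKM + 1) was fitted with limma 3.58.1 in R 4.3.3 (eBayes with trend) over all genes whose mean in the fit reached 0.5 FPKM, and Benjamini-Hochberg adjusted p-values under 0.05 passed. A gene low in 1 group could thus enter a fit only through the group where it was high. Of the 9 tissue libraries 6 are embryonic, which favours genes high there. The 9 tissue libraries made 1 fit, the 11 sphere libraries 1 fit on culture day, and day 7 was compared with adult LG and with E17.5 LG in 1 fit each. Reads were recovered by dividing FPKM by the worth of 1 read, and 92.6% to 93.6% of genes up to 1000 reads came out whole to within 0.01. For Alk the annotated exon length of 7755 bases did not give whole reads. Its smallest value was taken as 1 read, which implies a length of 4866 bases. Intervals of pooled read ratios are exact conditional intervals and use the deposited scale. The fits were tested on simulated data.

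All 7 genes were named with their values, and in the pathway lists up to 4 examples with the largest differences between E17.5 and adult LG among those past the threshold, to which some from the day 7 comparisons and all lower ones were added after their values were seen. The genes most like Ptn and Mdk were the 5 with the smallest root mean square difference of centred group means, among genes whose mean reached 1 FPKM. The 7 genes, the lists and the tests were chosen with earlier results of these data known. Same-numbered sphere libraries of different days deviated together (15 pairs, r 0.26 to 0.719, mean 0.457, against -0.606 to 0.438, mean -0.217, for different numbers). By the rule that every pair exceed 0.1 they count as paired, while tissue libraries do not (mean r -0.009). The slopes given are nonetheless from the fit on culture day alone, which ignores this pairing. The fit with the replicate number as a block is used only where it is named. Marker lists were summed as FPKM. Python 3.11.15 with pandas 2.3.3 was used for the tables.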

Additional observations from a re-analysis of the deposited data

Results flagged for a closer look

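The passage 10 library, which no test used, showed 3 of the 7 genes above all 11 passage 2 sphere libraries. Sdc1 was at 358 FPKM, Ncl at 85.8 FPKM and Ptprz1 at 7.11 FPKM. It is 1 library on another gene list, so the differences from passage 2 were not tested and passage, library and gene list cannot be told apart. No group was large enough for a check of single libraries.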

How the results depend on the processing

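The 7 genes kept their direction and their side of the threshold in most settings, which were a pseudocount of 0.1, no filter on low FPKM, the replicate number as a block, scaling to recovered reads, limma-voom and each library left out. Without the filter 4 of the 6 genes open to a test passed between E17.5 and adult LG, and with scaling to reads 4 passed between day 7 and adult LG. Leaving out a library gave 2 to 3 genes in both. Sdc3 turned with the scaling (0.041 at E17.5) and, chosen after the data were seen, without adult replicates 1 and 2 (0.61 at E17.5 and 0.48 at E19.5), and against day 7 it ranged from -0.55 to 0.73 with 1 library left out. Ptn between E19.5 and E17.5 LG turned to -0.0491 with scaling and ranged from -0.0506 to 0.13 with 1 library left out.

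Counts over all genes were less stable. Between E19.5 and E17.5 LG, 323 genes passed, 162 with a pseudocount of 0.1, 100 with the replicate block, 186 with scaling and 50 to 1736 with a library left out, the most without adult replicate 3. For the slope, 334 passed, 82 without the filter, 783 with the replicate block and 11 to 384 with a library left out, the fewest without day 5 replicate 1. Between day 7 and adult LG, 3770 to 8135 passed. The slope of Sdc1 turned to 0.0042 with the replicate block and 0.0115 with scaling and ranged from -0.030 to 0.0127 with 1 library left out, and that of Ptprz1 from -0.0866 to 0.0152. The causes were not tested. The block changed no call among the 7 genes.

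At these depths values under 0.5 FPKM rest on few reads, which limits Mdk, Ptprz1, Alk and Sdc1.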
